A study of Rattus norvegicus with 10 samples.

Results

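The comparison set 1 RNA library of RPE-J cells exposed to PNU-282987 (PNU below) for 1 h beside 1 library of the same cells exposed to nicotine for 1 h. These are 2 of the 10 libraries of the series, which also holds PNU at 30 min, 3 h, 8 h and 12 h, nicotine at 12 h, the antagonist MLA at 1 h and 12 h, and the vehicle DMSO at 12 h. PNU and MLA were given at 100 nM and nicotine at 1 µM, so the doses of the pair differ. The labels call nicotine the positive control for receptor activation. RPE-J is a rat retinal pigment epithelium line from a Long-Evans animal, transformed with SV40, so every library carries that transformation, and every flask was trypsinised before RNA extraction. No vehicle library at 1 h is among the samples used here, so a ratio of the pair does not say which library departed from vehicle. Polyadenylated RNA was sequenced, and a level below is a number of reads normalised within the table of the pair. That table lists 13497 of the 14119 genes listed in any table, and 11310 genes with a mean level of the pair of at least 50 were compared as the ratio of PNU over nicotine. With 1 library a side there is no replicate, no test was made, and each value describes these libraries and not the conditions. Where a gene has a pair of levels, nicotine comes first and PNU second. Intervals are 95% intervals that cover counting error only and leave out any spread between libraries. They treat reads as independent molecules, which reads are not, so they may be too narrow.

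PNU-282987 is an agonist selective for the α7 nicotinic acetylcholine receptor, a calcium-permeable ion channel, and nicotine activates many nicotinic receptor types. Cells short of sterol release the transcription factor SREBP-2 from the endoplasmic reticulum, which switches on genes of cholesterol synthesis and uptake, while INSIG proteins hold it back. Growth factor signalling through the kinase ERK switches on immediate early genes such as Egr1 within minutes and then genes such as the sprouty and DUSP families, whose products damp the same signal.

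The reads in listed genes numbered 26283462 in nicotine 1 h and 25523823 in PNU 1 h, within the range of 15220638 to 31510333 over the 10 libraries. Mitochondrially encoded genes took 3.03% of these reads in nicotine 1 h, against 2.97% to 3.58% in the other 9 libraries, and 3.20% in PNU 1 h. Of 26 pigment epithelium markers 12 were in the table, with summed levels of 25266 in nicotine and 23790 in PNU. Best1, the bestrophin channel of this epithelium, had levels of 7282 and 6091, and the melanosome gene Pmel had 523 and 522. Rpe65, Lrat, Tyr, Otx2 and Ttr had no value in the table and were not analysed here. Of the 24 keratin and epithelial junction genes 15 were listed, Krt8 with levels of 4516 and 4419, while Cdh1, Epcam and Krt18 had no value. Of 8 fibroblast markers 3 were listed, with summed levels of 62273 and 42179, and Dcn, Lum, Pdgfra, Thy1 and Fap had no value. The summed levels of the listed immune markers (3 of 8) were 701 and 784, and those of endothelial markers (4 of 6) 109 and 81.7. Neuron and photoreceptor markers (4 of 14) had 435 and 331, mostly from Tubb3 (360 and 276). Glial and progenitor markers (9 of 14), which include Vim and Nes, had 87105 and 64522. Most of that sum came from Vim (69459 and 46878) and the proliferation gene Pcna (11509 and 12894). The glial marker Gfap had 25.8 and 17.1, and Aqp4, S100b and Sox2 had no value. In these bulk samples fewer cells of a type and less RNA per cell cannot be told apart.

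Few genes lay far apart. PNU was at least 2-fold higher for 107 of the 11310 genes (0.946%) and at least 2-fold lower for 41 (0.363%), which is 148 genes (1.31%) in either direction. The median log2 ratio was 0.01, the median size of the log2 ratio was 0.21, and the 5th and 95th percentiles were -0.51 and 0.61. Just inside the 2-fold limit lay Pign (673 in nicotine and 1350 in PNU) and Pmepa1 (10867 and 5415), and just outside it Birc6 (1112 and 2221) and Calhm5 (143 and 285). Nicotine 1 h was the lowest of the 10 libraries in 95 of the 107 and the highest in 28 of the 41, while PNU 1 h was the highest in 10 of the 107 and the lowest in 23 of the 41. Since these genes were chosen on the values of nicotine 1 h and PNU 1 h, the ranks of both libraries, here and for the gene groups described further on, are in part fixed by that choice and are given as a description. The split of higher against lower calls depended on the minimum level: it was 215 against 201 genes at a minimum of 10. At 1.5-fold, PNU was higher for 629 genes (5.56%) and lower for 371 (3.28%). With the whole counting interval past 2-fold, 35 genes were higher and 12 lower. When MLA 1 h took the place of nicotine 1 h, a comparison that shares the PNU library, 3 genes were at least 2-fold higher in PNU and 8 lower.

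**Figure D1:**
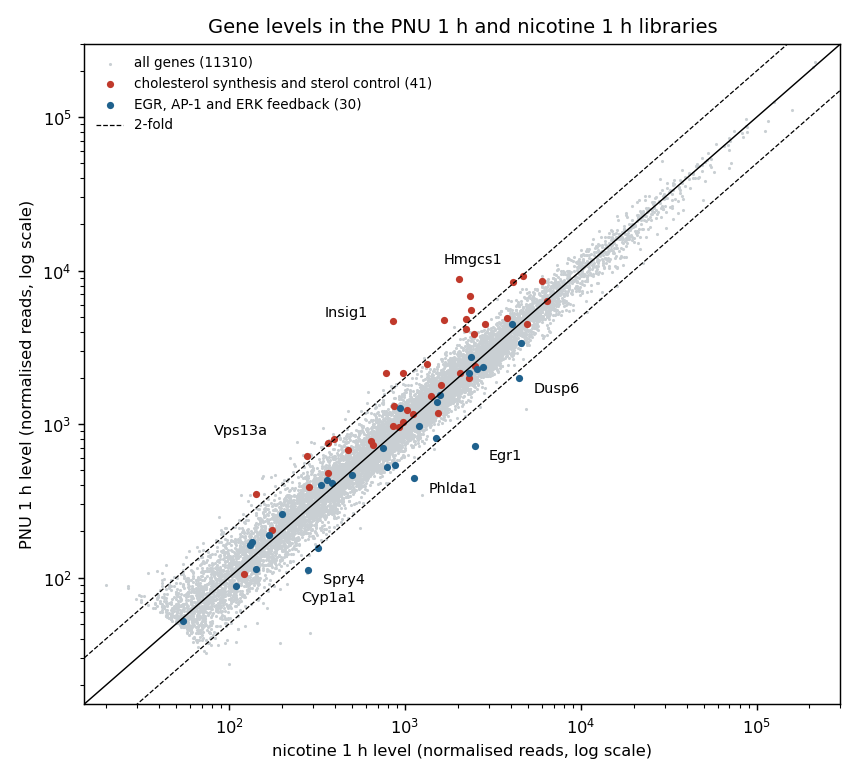
Level of each of the 11310 genes in nicotine 1 h (x axis) and PNU 1 h (y axis), in normalised reads on log scales, with the line of equal levels and dashed 2-fold lines. Sterol genes such as Insig1 (855 and 4719) lie above the upper dashed line, and Egr1 (2493 and 724), Dusp6, Spry4 and Phlda1 lie below the lower one.

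The genes of cholesterol synthesis were higher with PNU. All 22 enzymes of the pathway had a log2 ratio above 0, against 51% of all genes (5770 of 11310), and 10 of the 22 were at least 2-fold higher, beside the 0.946% of all genes. Their median log2 ratio was 0.94, against 0.01 for all genes. Of the 19 measured genes of sterol sensing, uptake and transport 13 were above 0, 3 of them at least 2-fold higher, with a median of 0.17. Of the 15 measured genes of fatty acid synthesis and desaturation 14 were above 0, none past 2-fold, with a median of 0.33.

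Promoter sequences of 4 of these genes and of Egr1 are printed as examples, picked because they carry the elements that such genes are known for. SREBP acts at sterol genes together with NF-Y, which binds the CCAAT box (CCAAT, or ATTGG on the other strand). Of the 22 enzymes 17 had a window in RefSeq's rat promoters (build GRCr8), which run from 250 bases before the start of a gene to 50 after it. A CCAAT box on either strand stood in 14 of the 17 windows (82.4%), against 12549 of 33469 windows in the table (37.5%). The windows of Acat2, Cyp51 and Dhcr7, which are not printed, held none. Among the genes at least 2-fold higher with PNU 29 of 64 windows held one (45.3%), and among those at least 2-fold lower 9 of 23 (39.1%). Each of these gene groups keeps the first window of a symbol, while the 33469 hold every window, so the shares are counted in unlike ways. Capitals mark each CCAAT box, and a match is a description of letters, not of binding.
Insig1, chr4:8057720-8058019, minus strand: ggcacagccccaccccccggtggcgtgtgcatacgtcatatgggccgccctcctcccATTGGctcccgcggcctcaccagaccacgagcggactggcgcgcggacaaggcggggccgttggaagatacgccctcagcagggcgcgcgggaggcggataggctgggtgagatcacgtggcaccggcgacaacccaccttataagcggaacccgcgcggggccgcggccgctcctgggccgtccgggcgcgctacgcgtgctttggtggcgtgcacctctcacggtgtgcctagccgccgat
Hmgcs1, chr2:53382054-53382353, plus strand: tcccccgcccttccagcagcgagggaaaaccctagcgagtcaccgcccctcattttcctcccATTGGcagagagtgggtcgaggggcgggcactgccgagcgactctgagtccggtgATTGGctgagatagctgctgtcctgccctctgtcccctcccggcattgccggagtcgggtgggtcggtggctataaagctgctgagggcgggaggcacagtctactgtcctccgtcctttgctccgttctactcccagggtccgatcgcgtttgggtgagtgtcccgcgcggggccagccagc
Msmo1, chr16:29746863-29747162, plus strand: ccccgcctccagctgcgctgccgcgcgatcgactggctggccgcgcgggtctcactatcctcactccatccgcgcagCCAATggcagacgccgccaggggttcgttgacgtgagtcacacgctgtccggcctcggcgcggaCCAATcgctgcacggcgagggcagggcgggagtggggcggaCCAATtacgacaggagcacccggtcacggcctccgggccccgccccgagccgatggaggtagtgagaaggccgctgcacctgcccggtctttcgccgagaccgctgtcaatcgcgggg
Hsd17b7, chr13:84722705-84723004, minus strand: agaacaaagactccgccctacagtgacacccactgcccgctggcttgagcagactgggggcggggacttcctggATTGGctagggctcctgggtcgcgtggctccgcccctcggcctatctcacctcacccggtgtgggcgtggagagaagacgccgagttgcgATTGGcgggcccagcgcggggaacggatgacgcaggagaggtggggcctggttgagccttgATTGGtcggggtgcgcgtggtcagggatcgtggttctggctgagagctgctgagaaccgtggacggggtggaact

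Insig1, whose protein retains the SREBP complex in the endoplasmic reticulum and is itself a target of SREBP, had the highest ratio of any gene with a symbol. Its level was 855 in nicotine and 4719 in PNU, a log2 ratio of 2.47 (2.36 to 2.57), or 5.52-fold. Stard4, which carries sterol between membranes, had levels of 276 and 622, a log2 ratio of 1.18 (0.97 to 1.38). The transcription factors that read the sterol state were less far apart, with 2485 and 3846 for Srebf1 (log2 ratio 0.63) and 3826 and 4884 for Srebf2 (0.35). Scap, the escort protein of SREBP, lay on the other side at 2326 and 2000 (-0.22), as did the sterol exporter Abcg1 at 1535 and 1177 (-0.38). Insig2, the second INSIG gene, had 175 and 205, and its interval (-0.08 to 0.52) spanned 0.

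Along the pathway the ratio was uneven. Hmgcs1, which makes HMG-CoA, had levels of 2017 in nicotine and 8873 in PNU, a log2 ratio of 2.14 (2.07 to 2.21), or 4.40-fold. Further along, the kinases Mvk and Pmvk and the decarboxylase Mvd had log2 ratios of 0.15, 0.28 and 0.12, and the interval of Mvk spanned 0. Idi1, the isomerase, and Fdps, which builds farnesyl diphosphate, had log2 ratios of 0.92 and 0.97. Fdft1, the squalene synthase that commits carbon to sterol, had 784 and 2168 (log2 ratio 1.47), whereas Ggps1, which leads to the side branch of geranylgeranyl diphosphate, had 859 and 972 (0.18).

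Sqle, which oxidises squalene, had levels of 2223 and 4860 (log2 ratio 1.13), and Lss, which closes the ring, had 394 and 805 (1.03). Of the enzymes that trim lanosterol, Msmo1 had 2345 and 6852 (1.55), Nsdhl 972 and 2168 (1.16), Hsd17b7 143 and 353 (1.31) and Cyp51 4099 and 8423 (1.04). Both proteins with sterol reductase activity at the same double bond, Tm7sf2 and Lbr, were nearer together, with log2 ratios of 0.08 and 0.61. Of the last enzymes, Ebp, Sc5d and Dhcr7 had log2 ratios of 0.27, 0.88 and 1.04. In the fatty acid branch Scd2, a stearoyl-CoA desaturase, had levels of 29054 and 52208 (0.85), and Acaca, the acetyl-CoA carboxylase, had 983 and 1548 (0.65).

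**Figure D2:**
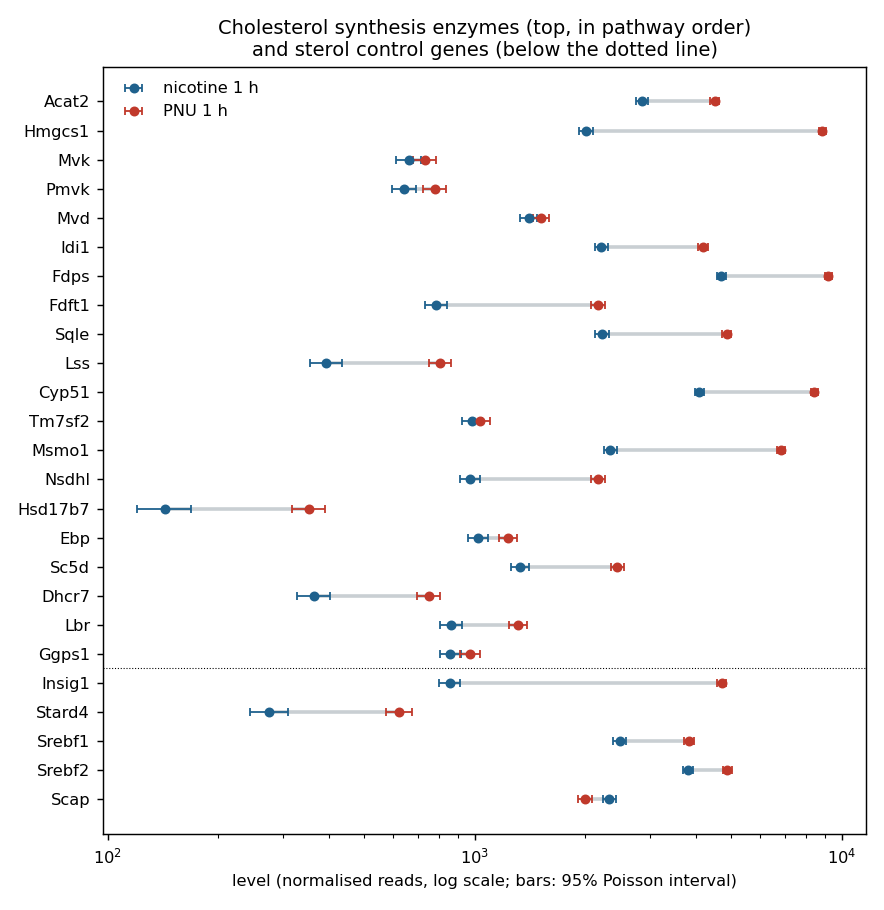
Level in nicotine 1 h and PNU 1 h of 20 of the 22 cholesterol synthesis enzymes in pathway order and of 5 sterol control genes, in normalised reads on a log scale, with 95% Poisson intervals. The PNU point lies to the right for all 20 enzymes shown, farthest for Hmgcs1 (2017 and 8873), and to the left for Scap (2326 and 2000).

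Over all 10 libraries, scaled together, nicotine 1 h lay at the low end for these genes and PNU 1 h near the high end. The level of Insig1 was 6156 with DMSO at 12 h, then 4755 and 4334 after PNU for 30 min and for 1 h, 3324 after PNU for 3 h and 3144 after MLA for 1 h. In the remaining libraries it had 1156 in PNU 12 h, 816 in nicotine 12 h, 811 in MLA 12 h, 782 in nicotine 1 h and 716 in PNU 8 h. A gap lay between MLA 1 h and PNU 12 h, and nicotine 1 h was the only library of an exposure under 8 h below it. Hmgcs1 had its gap at the same place, with 5119 (PNU 3 h) to 9969 (DMSO 12 h) above it and 1847 (nicotine 1 h) to 2973 (PNU 12 h) below. For the 13 sterol genes at least 2-fold higher in the pair, DMSO 12 h was the highest library in all 13 and nicotine 1 h the lowest in 9, while PNU 1 h was neither the highest nor the lowest in any. Against MLA 1 h, which shares the PNU library, Insig1 had a log2 ratio of 0.47 and the 22 enzymes a median of 0.14. At 12 h, between 2 other libraries, the enzymes had a median log2 ratio of PNU over nicotine of 0.11, 15 of 22 were above 0 (beside 49.7% of all genes at 12 h), and Insig1 had 0.48 (946 in nicotine and 1320 in PNU).

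Feedback genes of ERK signalling held some of the lowest ratios. Of the 19 measured ERK feedback genes 4 were at least 2-fold lower, none was 2-fold higher, 13 lay below 0 and the median log2 ratio was -0.12, beside 0.363% of all genes called lower. Of the 8 genes of the AP-1 family 5 lay below 0 (median -0.17), and of 22 other immediate early genes 17 lay below 0 (median -0.22), none of either list past 2-fold. The EGF family of ligands, receptors and sheddases had 7 of 10 above 0, with a median of 0.21.

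Egr1, a zinc finger transcription factor of the immediate early class, had levels of 2493 in nicotine and 724 in PNU, a log2 ratio of -1.78 (-1.91 to -1.66), or 3.44-fold lower with PNU. Its promoter is shown because SRF, which acts with ERK-responsive partners at Egr1, binds the CArG box, marked in capitals (both strands were searched). A CArG box stood in 548 of 33469 windows (1.64%) and in 3 of the 23 windows of genes at least 2-fold lower with PNU, counted in the same unlike ways as the CCAAT box.
Egr1, chr18:26736828-26737127, plus strand: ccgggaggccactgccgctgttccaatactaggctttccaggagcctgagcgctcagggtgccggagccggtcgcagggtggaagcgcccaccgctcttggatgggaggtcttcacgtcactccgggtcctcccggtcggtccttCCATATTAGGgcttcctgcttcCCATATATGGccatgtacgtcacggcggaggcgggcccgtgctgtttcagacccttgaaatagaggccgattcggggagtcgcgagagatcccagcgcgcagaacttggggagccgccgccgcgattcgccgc

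Over the 10 libraries Egr1 ran from 665 in PNU 1 h, the lowest, to 5448 in DMSO 12 h, the highest. Between them lay PNU 30 min (2945), PNU 3 h (2332) and nicotine 1 h at 2283, then MLA 12 h at 1751, PNU 12 h at 1596, PNU 8 h at 1434, nicotine 12 h at 1432 and MLA 1 h at 1253. So PNU 1 h stood below the other 9 libraries for this gene, and nicotine 1 h stood among the higher ones. The EGR corepressors Nab1 and Nab2 had log2 ratios of -0.02 and 0.20, and Egr2 was under the minimum level (33.7 in nicotine and 24.2 in PNU).

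Dusp6, the phosphatase that removes phosphate from ERK itself, had levels of 4454 and 1996, a log2 ratio of -1.16 (-1.24 to -1.08). Spry4, an inhibitor of receptor tyrosine kinase signalling, had 282 and 113, a log2 ratio of -1.32, or 2.49-fold lower. Phlda1, a pleckstrin homology protein, had 1130 and 445 (-1.35), and Dusp4, a nuclear ERK phosphatase, 321 and 155 (-1.05). For Dusp6 and Spry4 PNU 1 h was the lowest of the 10 libraries: Dusp6 had 1833 there and 3182 to 4940 in the other 9, and Spry4 had 104 there and 156 to 274 in the other 9. Phlda1 had 409 in PNU 1 h, 538 to 826 in 8 others and 1035 in nicotine 1 h, so that the pair held both ends. The paralog Spry2 had 882 and 541 (-0.71) and the ETS factor Etv5 795 and 527 (-0.59), whereas Dusp1, a phosphatase of stress kinases, had 941 and 1276 (0.44).

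Among the other early genes Fosl1, an AP-1 subunit, had levels of 1512 and 812 (log2 ratio -0.90), Myc 2165 and 1215 (-0.83), Ier2 1980 and 1098 (-0.85) and the endothelial and flow-responsive factor Klf2 231 and 128 (-0.85). Fos and Fosb had 143 and 114, and 110 and 87.8, with intervals that spanned 0. Jun (2764 and 2372) and Junb (2324 and 2146) were below 0 and Jund (4050 and 4476) above it. Hbegf, a membrane-bound ligand of the EGF receptor, had 2570 and 1947, a log2 ratio of -0.40 (-0.49 to -0.31), and Tgfa, another ligand, 349 and 241 (-0.53). The protease Adam10, which sheds some ligands of the EGF receptor, had 1208 and 1502 (0.31).

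Genes of the NF-kB response and inflammation were lower with PNU as a group, though 1 member passed 2-fold. Of 25 measured members 21 lay below 0, with a median log2 ratio of -0.49, and 9 were at least 1.5-fold lower, against 371 of 11310 genes (3.28%). Cxcl2, a neutrophil chemokine, had levels of 74.4 in nicotine and 32.3 in PNU, a log2 ratio of -1.20 (-1.85 to -0.59). The chemokines Ccl2 and Cxcl1 had 2207 and 1124 (-0.97), and 1189 and 606 (-0.97). Nfkbie, an inhibitor that NF-kB itself induces, had 798 and 416 (-0.94). Picked after their values were seen, the subunit Relb had 1479 and 794 (-0.90), Rela 3585 and 2393 (-0.58) and the inhibitor Nfkbia 2383 and 1601 (-0.57), with Rel on the other side at 234 and 283 (0.28). Against MLA 1 h the median of the list was 0.03, and between the 12 h libraries it was -0.07. Nfkbie had its highest level of the 10 libraries in nicotine 1 h, at 731, against 330 to 579 in the other 9. In the list of interferon and antigen processing 12 of 16 genes lay above 0, with 0.19 as the median, led by Usp18 at 39.7 and 74.6 (0.91).

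The aryl hydrocarbon receptor (AhR) senses aromatic compounds, and the list of its targets, which also holds the receptor gene Ahr and its partner Arnt, divided. Of 8 measured members 4 were above 0 and 4 below, with a median log2 ratio of -0.23, which was -0.61 at a minimum mean level of 100. Above 0 were Tiparp, Ahr (log2 ratio 0.15), Arnt (0.25) and Ahrr (0.15), and the interval of Ahrr (-0.35 to 0.64) spanned 0. Cyp1a1, the oxygenase most used as a readout of AhR, had levels of 213 in nicotine and 90.8 in PNU, a log2 ratio of -1.23 (-1.60 to -0.87). Its relative Cyp1b1 had 6399 and 3835 (-0.74), the quinone reductase Nqo1 6652 and 4006 (-0.73) and Aldh3a1 481 and 316 (-0.61). Tiparp, which damps AhR, had 996 and 1677 (0.75). Over the 10 libraries the level of Cyp1a1 was 21.5 with DMSO at 12 h, 28.3 after PNU for 30 min and 83.4 after PNU for 1 h, and it was 188 to 289 in the other 7, nicotine 1 h among them at 195. Against MLA 1 h, Cyp1a1, Cyp1b1 and Tiparp had log2 ratios of -1.71, -1.21 and -1.11, so Tiparp lay on opposite sides in the comparisons that share the PNU library.

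Several genes of the cytoskeleton and the matrix were lower with PNU, while the TGF-β list was evenly divided. Acta2, smooth muscle actin, had levels of 2691 and 1297, a log2 ratio of -1.05 (-1.15 to -0.96). Zyx, the focal adhesion protein zyxin, had 12793 and 6492 (-0.98), Tgfb1 4153 and 2443 (-0.77) and Pmepa1, a feedback inhibitor of TGF-β signalling chosen after its values were seen, 10867 and 5415 (2.01-fold lower). The fibrillar collagen Col1a1 had 49482 and 28913 (-0.78) and Vim, vimentin, 69459 and 46878 (-0.57), while Col3a1 had 12779 and 13254 (0.05). By list, 13 of 18 matrix genes were below 0 (median -0.24), 10 of 16 SRF-dependent contractile genes (-0.07), 12 of 17 matrix proteases and inhibitors (-0.20), 10 of 12 keratin and junction genes (-0.29), 11 of 16 Wnt genes (-0.22) and 7 of 14 TGF-β genes. On the higher side of the TGF-β list, Skil, a corepressor of SMAD proteins, had 858 and 1629 (0.93). The TGF-β median was near 0 (0.01) and its sign turned with scaling by the upper quartile. The summed fibroblast markers, 62273 and 42179, lay with these genes and consist mostly of Col1a1 and Col3a1, and their part in the result was not tested.

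The other genes of the 15 lowest ratios have no common list here. Hist1h1b, a linker histone, had levels of 100 in nicotine and 27.2 in PNU (log2 ratio -1.88, -2.55 to -1.25), and histone genes share reads with near-identical copies, so this value is uncertain. Rab25, an epithelial recycling GTPase, had 109 and 38.3 (-1.51), the kinesin Kif26b 165 and 63.5 (-1.37), the zinc finger factor Zbtb20 278 and 108 (-1.36) and Cpne5, a copine, 124 and 48.4 (-1.36). Hcar2, a receptor for ketone bodies and niacin, had 94.2 and 37.3 (-1.34), and Phlda2, an imprinted growth gene, 97.2 and 39.3 (-1.30). Vgf, a neurosecretory protein, and Rnf128, a ubiquitin ligase, each had 112 and 46.4 (-1.27). Epha1, an ephrin receptor, had 86.3 and 36.3 (-1.25) and Fjx1 195 and 83.7 (-1.22). Entries listed under clone numbers were lower still and were picked after their values were seen: AABR07063425.1 had 289 and 43.4 (-2.74) and AABR07015057.1 had 4867 and 1259 (-1.95). For the 41 genes at least 2-fold lower, nicotine 1 h was the highest of the 10 libraries in 28 and PNU 1 h the lowest in 23.

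**Figure D3:**
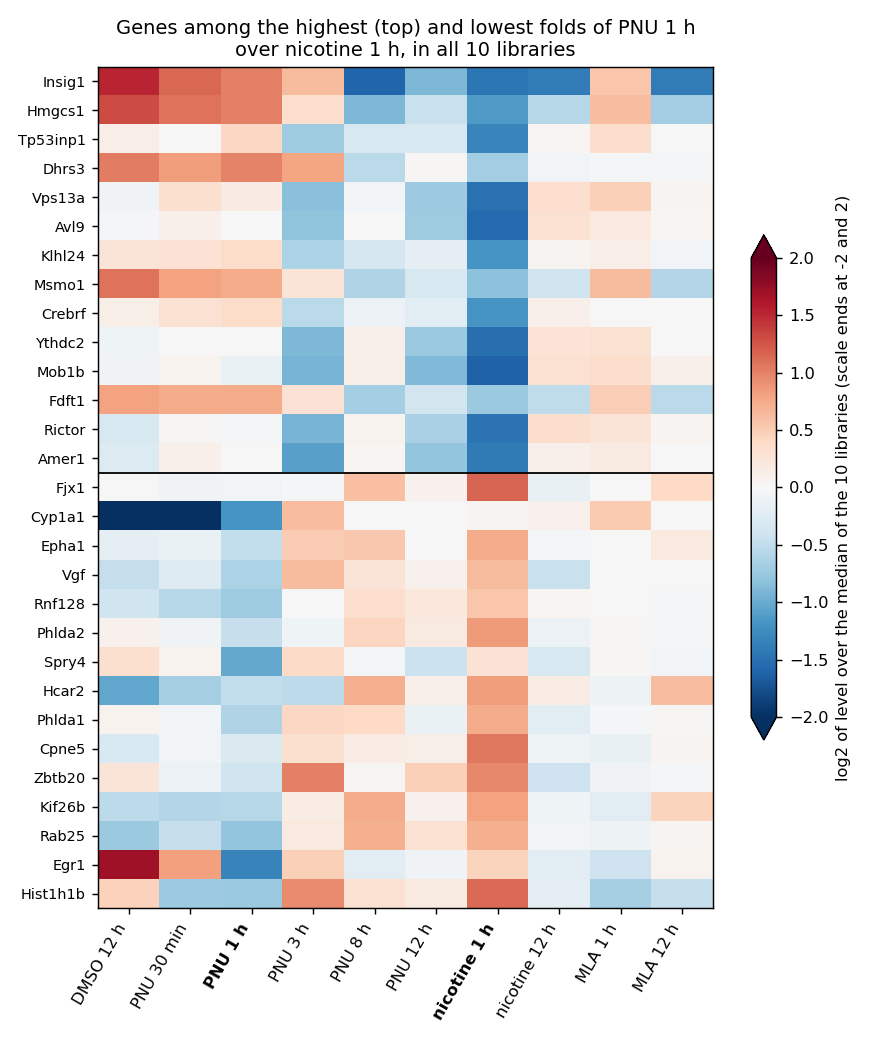
Genes with a symbol among the 15 highest (top, 14 of them shown) and 15 lowest log2 ratios of PNU 1 h over nicotine 1 h, as log2 of the level in each of the 10 libraries over the median of the 10, on a colour scale that ends at -2 and 2. For Vps13a, Avl9, Mob1b and Rictor the nicotine 1 h column is the darkest blue, and the sterol genes are red in DMSO 12 h, PNU 30 min and PNU 1 h.

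Outside the sterol and fatty acid lists 94 genes were at least 2-fold higher with PNU, 75 of them with a symbol, at a median log2 ratio of 1.15. Among those named here are regulators of growth, of RNA and of membrane traffic. Vps13a, a lipid transfer protein at membrane contacts, had levels of 244 in nicotine and 762 in PNU, a log2 ratio of 1.64 (1.43 to 1.86). Rictor, the defining subunit of the kinase complex mTORC2, had 222 and 606 (1.45), and Mob1b, a coactivator of the Hippo kinases, had 340 and 946 (1.48). Ythdc2, an RNA helicase of the m6A readers, had 87.2 and 248 (1.51), Avl9, a protein of late secretion, 117 and 344 (1.56), and Amer1, a Wnt inhibitor, 131 and 347 (1.41). Tp53inp1, a stress-induced protein that acts in autophagy, had 26.8 and 88.8 (1.73), Klhl24, a ubiquitin ligase adaptor, 157 and 458 (1.55), and Crebrf, a regulator of the stress factor Luman, 154 and 444 (1.53). Dhrs3, a retinal reductase, had 26.8 and 85.7 (1.68, 1.04 to 2.36). Of the 15 highest it was the one that was also at least 2-fold higher than in MLA 1 h. That log2 ratio was 1.02, with a wide interval (0.45 to 1.62) that reached below 2-fold. The cAMP phosphodiesterase Pde4b had 41.6 and 88.8 (1.09) and the integrin subunit Itgb8 32.7 and 75.7 (1.21). Chosen after their values were seen, the splicing regulators Ptbp3 (614 and 1609) and Mbnl1 (288 and 637), the caspase inhibitor Xiap (183 and 469) and the copper transporter Atp7a (304 and 757) had log2 ratios of 1.39, 1.15, 1.35 and 1.31. Chm and Rp2, genes of inherited retinal degeneration in humans and picked in the same way, had 288 and 620 (1.10) and 94.2 and 211 (1.16).

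For these 94 genes, which were chosen for a low nicotine 1 h level beside PNU 1 h, nicotine 1 h was the lowest of the 10 libraries in 86, with a median log2 of -1.14 relative to the median of the libraries, followed by PNU 3 h at -0.63 and PNU 12 h at -0.48. PNU 1 h lay at 0.01, nicotine 12 h at 0.27 (the highest library in 38) and MLA 1 h at 0.26 (the highest in 31). Rictor illustrates the order: its level was 203 after nicotine for 1 h, 298 and 360 after PNU for 3 h and 12 h, 557 after PNU for 1 h, 674 after MLA for 1 h and 723 after nicotine for 12 h. A list of long transcripts of chromatin and signalling lay with them: 26 of its 36 members were above 0 at 1 h, with a median log2 ratio of 0.23, and Vps13a is in both. Its part in the 94 genes, like that of RNA quality, was not tested. When the genes were split by mean level into 10 bins of 1131, the median log2 ratio of a bin stayed between -0.02 and 0.04. The bins of lowest level held 28 and 18 genes at least 2-fold higher with PNU, against 2 in the bin of highest level.

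Between the 12 h libraries, which share neither library with the 1 h pair, most of these genes lay on the other side. At 12 h the PNU level was the lower one for 92 of the 94 genes, and 24 were at least 2-fold lower, with a median log2 ratio of -0.75. At 12 h 44 of 11376 genes (0.387%) were at least 2-fold lower with PNU and 7 (0.0615%) higher. Itgb8 had a log2 ratio of -1.73 at 12 h, Mob1b -1.20, Vps13a -1.09 and Rictor -1.03. The long transcript list lay with them, with 11 of 36 members above 0 and a median of -0.21. Of the sterol genes, 9 of the 13 were again above 0 at 12 h, none past 2-fold (median 0.10). The 41 genes lower with PNU at 1 h had 29 above 0 at 12 h and a median of 0.15, and 2 of them were at least 2-fold lower again. No test of the difference between the times was made.

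**Figure D4:**
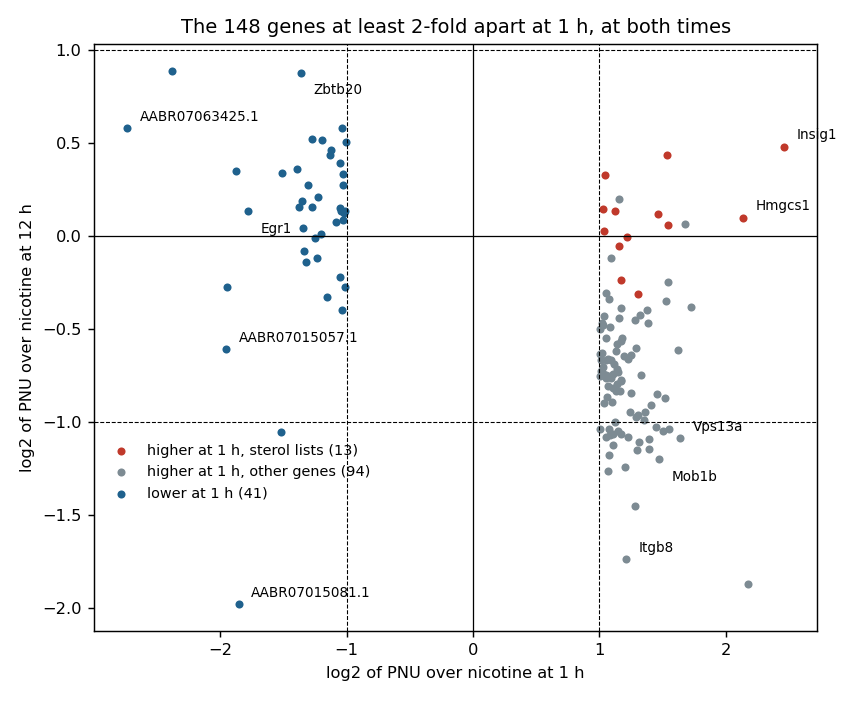
Log2 ratio of PNU over nicotine at 1 h (x axis) and at 12 h (y axis) for the 148 genes at least 2-fold apart at 1 h, with dashed 2-fold lines. The 94 other genes higher at 1 h gather below 0 at 12 h (median -0.75), while the 13 sterol genes lie around 0 (median 0.10).

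Of the lists of the cell's basic machinery, genes of G2 and mitosis lay mostly above 0. They had 35 of 42 above 0, beside 5770 of the 11310 genes in all, with a median log2 ratio of 0.23. At least 1.5-fold higher were 5 of the 42, beside 5.56% of all genes, and none was past 2-fold. Among them were Anln, an organiser of the cleavage furrow, at 2343 and 3980 (0.76) and the kinesin Kif11 at 3516 and 5478 (0.64). At 12 h 11 of the same 42 were above 0 (median -0.09). S phase genes had 25 of 43 above 0 (median 0.04). Cytosolic ribosomal protein genes had 26 of 60 above 0 (median -0.02) and nuclear oxidative phosphorylation genes 31 of 60 (0.02, a sign that turned with scaling by the upper quartile), against 59 of 63 (0.21) and 55 of 60 (0.18) at 12 h. Mitochondrially encoded genes had 8 of 13 above 0 (0.10), with Mt-nd4l at 4860 and 7553 and Mt-nd6, on the other strand, at 15645 and 10726. Ribosomal protein genes took 6.55% of the reads in nicotine 1 h and 6.48% in PNU 1 h.

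Stress and clock lists had medians between -0.16 and 0.17. Integrated stress response genes had 15 of 21 below 0 (median -0.07), with the amino acid transporter Slc7a5 at 6071 and 3669 (-0.73). Cytosolic heat shock genes had 11 of 17 below 0 (-0.16), with Hspb1 at 3783 and 2205 (-0.78), and endoplasmic reticulum chaperones 14 of 19 (-0.08). NRF2 genes had 10 of 17 below 0 (-0.08), with the ferritin subunit Ftl1 at 30582 and 19051 (-0.68). Circadian genes had 11 of 16 above 0 (0.17), with Bhlhe40 at 1312 and 2309 (0.82) and Nr1d2 at 510 and 856 (0.75). At least 1.5-fold higher were 4 of the 16, beside 5.56% of all genes. Hypoxia and glycolysis genes had 14 of 30 above 0 (-0.05), with the lactate exporter Slc16a3 at 147 and 71.6 (-1.03) and Bnip3, a mitophagy receptor, at 212 and 424 (1.00, just under 2-fold).

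**Figure D5:**
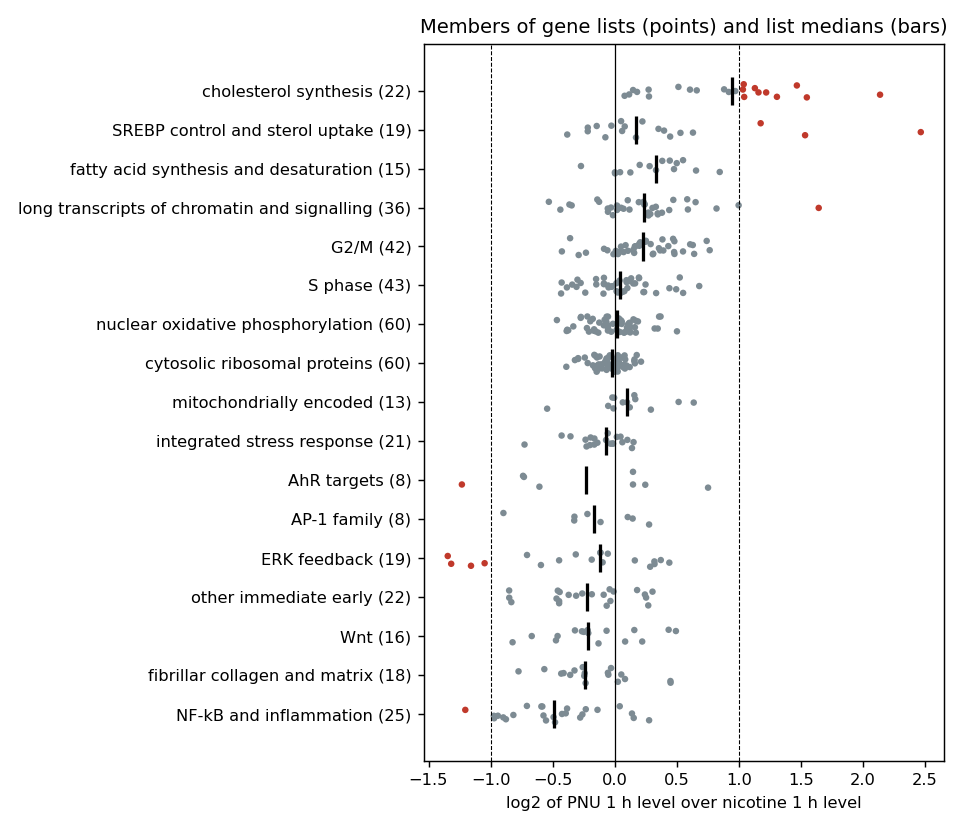
Log2 ratio of PNU 1 h over nicotine 1 h of the members of 17 gene lists at a mean level of at least 50 (points, red where at least 2-fold), with the median of each list (bar) and the number of members in brackets. Cholesterol synthesis lies highest (median 0.94) and NF-kB and inflammation lowest of the lists shown (median -0.49).

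Of the receptor genes themselves little could be measured. Of 26 nicotinic receptor and partner genes 8 were in the table and 2 reached the minimum level. Chrnb1, the muscle-type β1 subunit, had levels of 507 in nicotine and 532 in PNU, with an interval of the log2 ratio (-0.11 to 0.25) that spanned 0. Ly6e, a member of the family of receptor-binding Ly6 proteins, had 640 and 421 (-0.61), and Chrna5 had 50.6 and 46.4, just under the minimum. Chrna7, which encodes the α7 subunit, had no value in the table and was not analysed here.

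In the authors' deposited table of this pair 0 of 13497 genes had an adjusted p-value under 0.05, the lowest being 1.00 (0.999967), and 171 had an unadjusted p-value under 0.05, the lowest being 0.00776. Those p-values rest on 1 library a side as well, with no replicate behind the spread they assume, so neither a difference nor its lack can be read from them.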

How the data were processed

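Polyadenylated RNA was measured in 10 libraries, 1 per condition. Tools named per the submitters' processing notes are Trimmomatic 0.36, STAR 2.5.2b, Subread 1.5.2 with featureCounts, and DESeq2 (no version). Not given in the sources used here are genome build, annotation and strand setting. The authors deposited 39 pairwise tables with a log2 fold change, a p-value and 1 level per library, per the file headers. A deposited level is a signal without negative values, and looks like reads over a size factor that differs from table to table. In each column 100% of the values lay within 0.01 of a whole multiple of 1 step. The read numbers so obtained gave the intervals (exact binomial for ratios, exact Poisson for levels) and the scaling of all 10 libraries by the median of ratios. No count model was run.

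The ratio of PNU 1 h over nicotine 1 h came from the table of this pair, for genes whose mean level reached 50, and with 1 library a side no p-value was computed. The lowest mean level listed was 10.4, so sums of reads are not library depth. The column number left over was taken as PNU 12 h. The pair, its members, the 43 gene lists (973 genes) and the rules were chosen with earlier results of these data known. Named by rule are, among genes with a symbol, the 15 highest and 15 lowest ratios past 2-fold, every sterol synthesis and control, AhR, EGR and AP-1 list member, up to 4 of each other list with the largest ratios, and Chrna7, Hbegf and Rpe65. Other genes and further list members were named after their values were seen, and some that the rule names are left out. Not used in lists were 62 symbols carried by more than 1 gene and 19 entries turned into dates. The procedure was tested on simulated data. Those reads held counting error only, so the test says nothing of spread between libraries. Python 3.11.15, numpy 2.4.6, pandas 2.3.3, scipy 1.17.1 and matplotlib 3.10.9 were used.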

Additional observations from a re-analysis of the deposited data

Results flagged for a closer look

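Some genes that were at least 2-fold higher with PNU at 1 h were at least 2-fold lower with PNU at 12 h, in libraries the 1 h pair does not share. Among the genes named by rule, the log2 ratio of PNU over nicotine at 12 h was -1.09 for Vps13a, -1.04 for Avl9, -1.05 for Ythdc2, -1.20 for Mob1b, -1.03 for Rictor and -1.73 for Itgb8. The 94 genes outside the sterol and fatty acid lists that were at least 2-fold higher at 1 h had a median log2 ratio of -0.75 at 12 h. These values were singled out because the effect lay on opposite sides at the 2 times. The difference between the times was not tested, since each time has 1 library a side.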

How the results depend on the processing

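The counts of genes at least 2-fold apart, 107 higher and 41 lower with PNU, were 104 and 39 with scaling over all 10 libraries, 120 and 38 with scaling by total reads, 100 and 46 by the upper quartile, and 87 and 29 with a pseudocount of 10. At a minimum mean level of 10 they were 215 and 201, at 100 they were 81 and 25, at 1.5-fold 629 and 371, at 3-fold 7 and 7, and with the whole counting interval past 2-fold 35 and 12. The share of these calls that was higher was 72.3% as reported, 51.7% at a minimum level of 10 and 50% at 3-fold. Chosen after seeing the data, MLA 1 h in place of nicotine 1 h gave 3 and 8, and PNU 30 min in place of PNU 1 h gave 164 and 42; the cause was not tested. Of the 247 genes with values in detail, 241 (upper quartile) to 247 (pseudocount, scaling over all 10 libraries) moved by no more than their counting error. List medians changed sign for EGR and NAB with total reads, for TGF-β and nuclear oxidative phosphorylation with the upper quartile, for integrins and fibroblast markers at a minimum level of 10, and for calcium and cAMP at 10 and 100. At a minimum level of 10 the list median was -0.25 for EGR and NAB, 0.092 for integrins, -0.085 for nicotinic receptors and 0.025 for fibroblast markers. At 100 it was -0.61 for the AhR list and -0.20 for the list that holds Cdkn1a, Mdm2 and Bax. With the upper quartile it was 0.076 for mitochondrially encoded genes. The median log2 ratio of all genes lay between -0.016 (upper quartile) and 0.024 (total reads) over the scalings. No paired analysis was possible because each condition has 1 library. Genes below a mean level of about 10.4 were not analysed here, and levels near 50 carry wide intervals.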

Other observations

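The remaining gene lists had medians between -0.09 and 0.15, beside 0.01 for all genes, with single members far out. Genes of BMP signalling and of the ID factors, which block differentiation factors of the helix-loop-helix class, had 10 of 13 above 0 and a median log2 ratio of 0.09. Within that list the receptor Bmpr1a had levels of 739 in nicotine 1 h and 1382 in PNU 1 h (log2 ratio 0.90), Id2 had 1176 and 2115 (0.85), and the ligand Bmp2 had 396 and 245 (-0.69). FOXO and starvation genes had 9 of 14 above 0 (median 0.15), with the insulin receptor substrate Irs1 at 229 and 381 (0.74). The list that holds Cdkn1a, Mdm2 and Bax, genes of growth arrest and cell death, had 9 of 19 above 0 (-0.09).

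Notch genes had 4 of 11 above 0 (median -0.08), with the ligand Jag1 at 312 and 197 (-0.67) and the receptor Notch3 at 160 and 218 (0.45). YAP-responsive genes had 9 of 16 above 0 (0.07), with tissue factor, F3, at 1404 and 1982 (0.50) and Ankrd1 at 422 and 525 (0.31). Calcium and cAMP response genes had 10 of 20 above 0 (0.04, a sign that turned at a minimum level of 10 or 100). Among those above 0 the transcription factor Creb1 had 166 and 325 (0.97) and the calcium release channel Itpr1 965 and 1381 (0.52). The lowest member of this list had a log2 ratio of -0.53. Integrins had 4 of 10 above 0 (-0.09, and 0.09 at a minimum level of 10), with Itga3 at 13234 and 9641 (-0.46). Pigment epithelium genes had 4 of 10 above 0 (-0.05), with the retinol dehydrogenase Rdh5 at 84.3 and 48.4 (-0.80) and Rdh11 at 1008 and 1210 (0.26).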
